A study of Callithrix jacchus with 5 samples.

Results

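WNT2, PORCN, LGR5 and CCN4 are 4 genes of the WNT signalling pathway, described here in fibroblasts and pluripotent cells of Callithrix jacchus, the common marmoset. They are 4 of 30811 gene identifiers in the count table and were found by matching marmoset Ensembl identifiers to symbols. Another 12 identifiers whose symbol starts with WNT serve as context. The 4 genes were picked with their levels in these libraries already known, so those levels are given as a description. The count of them past the threshold, printed once, was fixed by that choice and is no test. All 4 passed the filter on low counts.

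RNA was sequenced from 5 libraries: 1 of fibroblasts, the connective tissue cells titled E01F with P number 1, 3 of embryonic stem (ES) cells and 1 of induced pluripotent stem (iPS) cells. The ES libraries come from separately named lines, No40 (P number 63), DSY127 (P number 17) and No20 (P number 45). The iPS cells were made from marmoset fibroblasts by RNA-based reprogramming, per the series title, and it is not stated whether E01F was their source. The labels give no genotype or treatment. Each ES line and each of the other cell types is represented by a single library, so p-values measure the spread between the 3 ES lines, and the lone fibroblast and iPS libraries are assumed to vary as an ES line does.

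WNT ligands are secreted glycoproteins that cells use to instruct their neighbours. In the endoplasmic reticulum the acyltransferase PORCN attaches a fatty acid to the ligand, and the carrier WLS brings it to the cell surface, where it binds Frizzled receptors and LRP co-receptors. In the canonical branch this stabilises β-catenin (CTNNB1), which with TCF and LEF factors switches on target genes. LGR5 is both a target gene and a receptor for R-spondins, which raise the response to WNT. CCN4, also called WISP1, is a secreted matricellular protein first described as a WNT-induced gene. In pluripotent cells WNT signalling bears on the choice between self-renewal and mesendoderm, and in fibroblasts on matrix production.

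Total counts were 34111715 to 58601185 in the fibroblast and ES libraries and 5746449 in the iPS library. Levels are given in CPM, the count scaled to library size, here with TMM factors. A count of 3 equals 0.0610 to 0.0834 CPM in the fibroblast and ES libraries and 0.507 CPM in the iPS library, so low genes were measured least well in the iPS cells. The labelled cell types were checked against markers. All 9 measured pluripotency markers fell in the fibroblast library (summed level 3.802 CPM, against 2580 to 4604 CPM for ES and 3976 CPM for iPS cells). Of 14 measured fibroblast markers, 13 rose there (summed level 95118 CPM, against 4295 to 6063 CPM in the ES lines). The 14 summed to 13292 CPM in the iPS library, with none at 0. Most of that iPS sum came from COL1A1, COL1A2, FN1 and COL3A1 (4922, 3447, 1907 and 1684 CPM). The median log2 fold change of the 14 markers in iPS cells against the ES lines was 0.01, with 7 of them above 0. Summed endothelial markers were 7.08 CPM in fibroblasts and 249.5 to 456 CPM in the pluripotent libraries, keratinocyte markers 0.609 and 1.69 to 2.58 CPM, and melanocyte and neural crest markers 13.6 and 195 to 299 CPM. Muscle markers summed to 282 CPM in fibroblasts and 11.2 to 22.0 CPM elsewhere, and blood markers to 47.3 CPM in fibroblasts, 25.5 CPM in the iPS library and 4.42 to 7.89 CPM in the ES lines. Some of these sums rested mostly on 1 or 2 genes. PECAM1 gave 145 to 288 CPM and KDR 71.0 to 90.8 CPM of the endothelial sum in the pluripotent libraries. CDH5, TEK and CLDN5 stood at 18.3 CPM or less in each of them. CNN1 gave 265 CPM of the muscle sum in fibroblasts. The other muscle markers, MYOD1, MYOG, TTN and MYH11, were also higher there than in any ES line. They stood at 1.28, 2.10, 7.25 and 5.42 CPM in fibroblasts, against at most 0.111, 0.0686, 0.667 and 1.63 CPM in the ES lines. In iPS cells they stood at 0, 0.338, 1.35 and 8.79 CPM. ERBB3 gave 171 to 274 CPM of the neural crest sum in the pluripotent libraries. RUNX1 gave 46.7 CPM of the blood sum in fibroblasts and 25.2 CPM in iPS cells. The other blood markers, PTPRC and SPI1, stood at 0.0840 and 0.546 CPM in fibroblasts and at 0 and 0.338 CPM in iPS cells. KRT14 and DSG3 were at 0 in the fibroblast library, and KRT14, TYR, MYOD1 and PTPRC in the iPS library. The part of such other cells in the results was not tested.

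The 4 genes split into a set of 3 that were high in the fibroblast library and 1 that was high in the iPS library. WNT2, LGR5 and CCN4 stood far above every other library in fibroblasts and were at or near the detection limit in the iPS library. PORCN was similar in fibroblasts and ES lines and 21.2 times the pooled ES level in the iPS cells. In the fibroblast comparison 3 of the 4 genes lay past the threshold (adjusted p under 0.05), where 18.1% of 17462 genes tested were called in either direction. In the iPS comparison 1 of the 4 did (PORCN), where 0.109% of genes were called, all of them higher (0.0872% of those with a symbol). Nothing is read from these counts, because the genes were chosen on these contrasts.

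**Figure D1:**
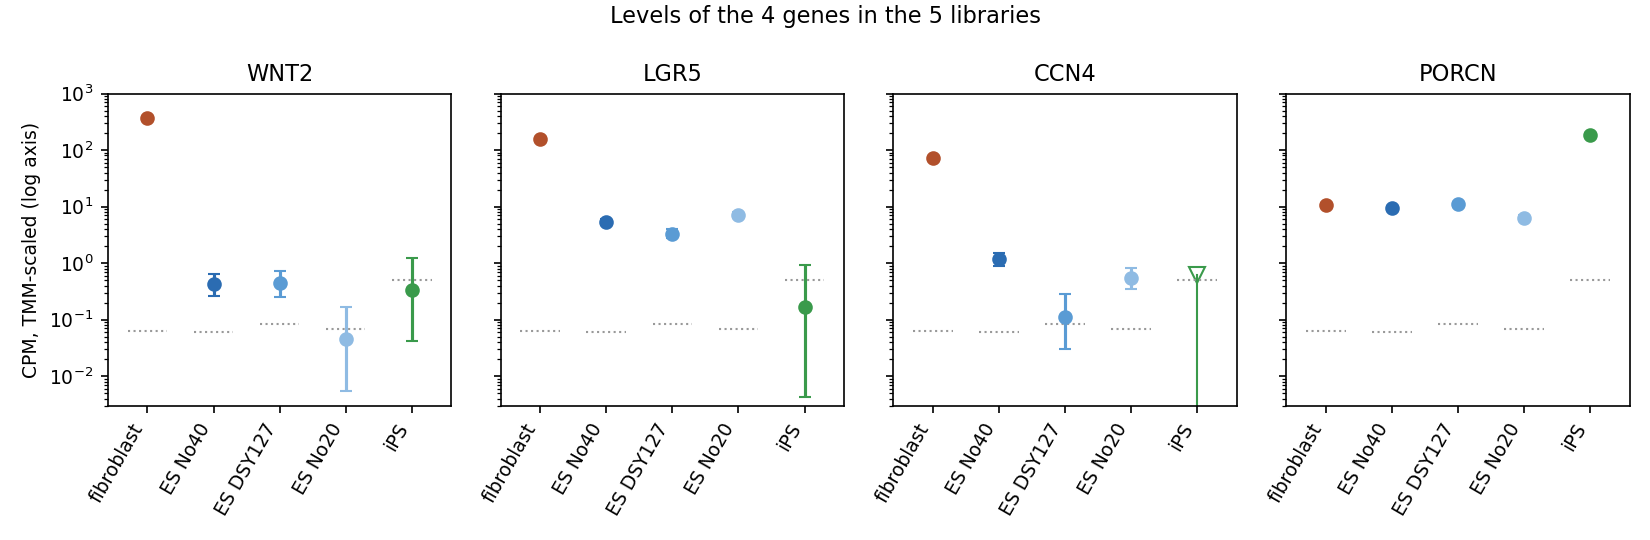
Level of WNT2, LGR5, CCN4 and PORCN in each of the 5 libraries, in TMM-scaled CPM on a log axis. Points are single libraries with 95% exact Poisson intervals (counting error only), dotted lines mark 3 counts in that library, and the open triangle is the upper limit for CCN4, which had no count in the iPS library. WNT2, LGR5 and CCN4 are highest in the fibroblast library, at 370, 157 and 72.9 CPM, and PORCN in the iPS library, at 187 CPM.

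WNT2 is the ligand of the set, a WNT known from mesenchyme of the developing lung and heart. Its counts were 17610 for fibroblasts, 21, 16 and 2 for the ES lines No40, DSY127 and No20, and 2 in the iPS library. These correspond to 370 CPM in fibroblasts, 0.427, 0.445 and 0.0457 CPM in the 3 ES lines in that order, and 0.338 CPM in iPS cells. Fibroblasts alone held WNT2 above 1 CPM, and the other 4 libraries lay well below that level. The fitted log2 fold change of fibroblasts against ES lines was 10.23 ± 0.82 (SE), and only 3 of the 17462 genes tested ranked higher.

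The ES lines themselves were not uniform for WNT2. The 95% exact Poisson interval for No20 reached from 0.00554 to 0.165 CPM, below the intervals of No40 (0.264 to 0.652 CPM) and DSY127 (0.254 to 0.723 CPM). The iPS interval, 0.0409 to 1.22 CPM, covers all 3 ES values. At the pooled ES level the iPS library would have held 1.79 counts of WNT2, against the 2 seen, so a difference between iPS and ES cells was not detectable at this depth. At the fibroblast level it would have held 2188 counts.

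Positions are those of the files, with the build not given in the sources used here. WNT2 (ENSCJAG00000004983) spans 86193453 to 86240853 on the minus strand of chromosome 8, with 2913 exonic bases in 5 blocks. Its nearest neighbours with a symbol, the germline gene ASZ1 and the chloride channel gene CFTR, stood at 0.168 and 3.19 CPM in fibroblasts and did not pass against the ES lines (adjusted p = 0.998 and 0.481, edgeR quasi-likelihood test). CTTNBP2, a cortactin-binding protein gene 375756 bases away, fell (7.12 CPM, and 55.6, 33.9 and 69.6 CPM in No40, DSY127 and No20; adjusted p = 0.0199). The genes most like WNT2 in profile over the 5 libraries were CXCL14, ABCA6 and CPED1. Their Euclidean distances, taken between mean-centred log2 CPM values among 10724 named genes, were 1.71, 1.84 and 2.29. CXCL14, a chemokine, stood at 1191 CPM in fibroblasts and 1.33 to 4.67 CPM in the other libraries.

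Among ligands, WNT2 headed the fibroblast library and was nearly absent from the ligand pool elsewhere. Per length, WNT2 stood at 127 CPM per kilobase in fibroblasts, followed by WNT11 at 99.1 and WNT5A at 44.6. The next, WNT2B, stood at 5.43 CPM per kilobase. WNT2 made up 45.4% of the summed level of the 13 WNT genes measured there, and that sum was 279.7 CPM per kilobase against 12.4, 26.9 and 25.7 in No40, DSY127 and No20 and 25.8 in the iPS library. WNT5A led in No40 (43.3% of the sum), No20 (52.0%) and the iPS library (58.5%), while WNT5B led in DSY127 (21.5%).

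**Figure D2:**
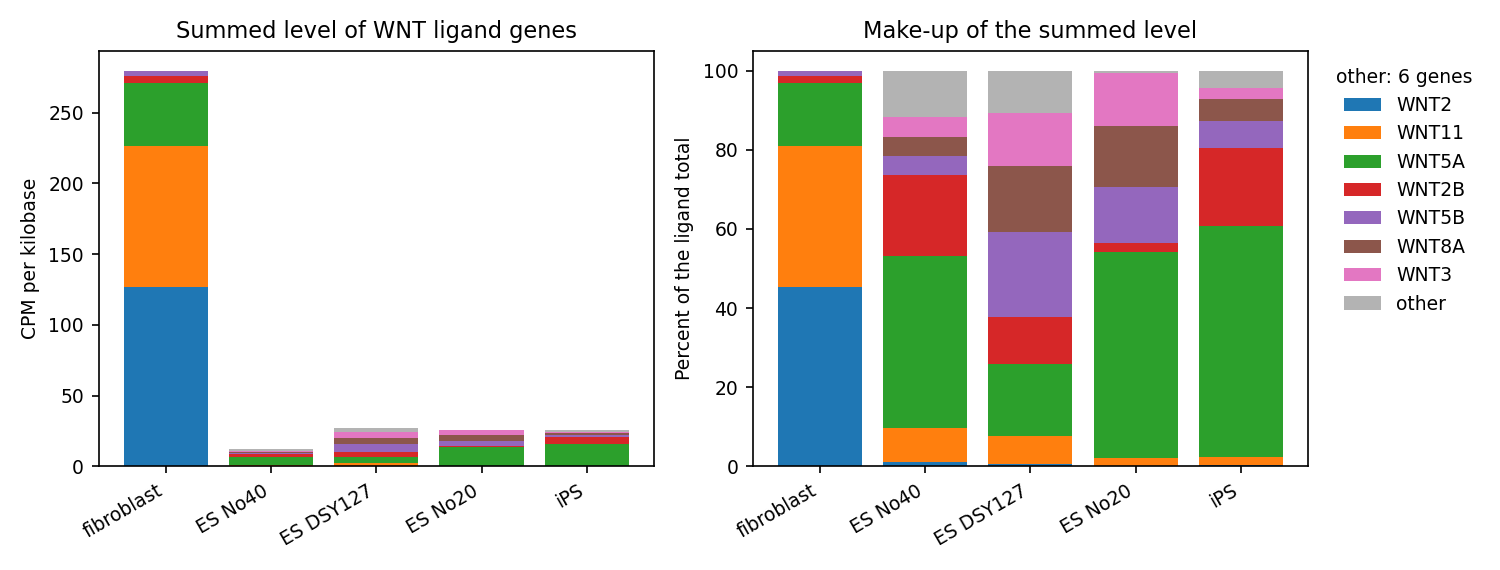
Summed level of 13 WNT ligand genes in each library in CPM per kilobase (left) and the share of each ligand in that sum in percent (right). Bars are single libraries; the fibroblast sum is 279.7 CPM per kilobase, of which WNT2 is 45.4%, and WNT2 is barely visible in the other 4 bars.

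Of the 12 other WNT genes, 10 could be tested. Over all genes tested 8.8% were called higher and 9.28% lower in fibroblasts, the shares to set beside each list count below. WNT11 and WNT5A, ligands best known for β-catenin-independent signalling, rose in the fibroblast library, WNT8A fell and 7 did not pass (edgeR quasi-likelihood test, Benjamini-Hochberg adjustment over all genes). WNT11 counted 10118 reads in fibroblasts, 112, 150 and 52 in the ES lines and 6 in the iPS library. These are 213 CPM against 2.55 ± 1.51 CPM (SD, n = 3), or 6.39 ± 0.62 (SE) on the log2 scale (adjusted p = 0.00237). WNT5A stood at 74.96 against 13.2 ± 8.05 CPM (2.503 ± 0.59, adjusted p = 0.0317), and at 25.4 CPM in the iPS library. WNT5A did not pass without No40 or with total counts alone.

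WNT8A, a ligand of the early embryo, had no count in fibroblasts and 4.96 ± 3.45 CPM in the ES lines. With 3 counts as the fibroblast floor it was at least 73.7-fold lower (adjusted p = 0.0263), a call lost with limma voom. This bound ranged from 57.4-fold without DSY127 to 109.5-fold without No40. The 7 that did not pass were WNT10B, WNT2B, WNT3, WNT3A, WNT5B, WNT6 and WNT9B. Of these WNT3 passed as lower with DESeq2, WNT3A with DESeq2 and without No20, and WNT9B without No20. WNT2B, the paralog of WNT2, stood at 13.5 CPM in fibroblasts, 6.34, 8.07 and 1.46 CPM in No40, DSY127 and No20 and 12.5 CPM in iPS cells (adjusted p = 0.312 and 0.749 for fibroblasts and iPS cells). WNT1 and WNT10A had a single count each over the 5 libraries and were not tested. The median log2 fold change of the 10 tested was -1.38, against -0.15 over all genes tested.

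PORCN is the enzyme that acylates WNT ligands. Its counts were 508 in the fibroblast library, 468, 395 and 276 in No40, DSY127 and No20, and 1109 in the iPS library, although the latter was the shallowest. As CPM these are 10.7 in fibroblasts, 9.51, 10.99 and 6.31 in the ES lines and 187 in the iPS cells. The iPS value lay above all others, and the fibroblast value fell inside the range of the ES lines. The fitted log2 fold change was 4.39 ± 0.40 (SE) for iPS cells and 0.26 ± 0.43 for fibroblasts, both against the same ES lines.

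The iPS level was 21.2 times the pooled ES level (95% counting interval 19.5 to 23.1) and 17.6 times the fibroblast level (15.8 to 19.6). Counting error was therefore small, but no second iPS library was analysed here to show how far such cultures vary. The log2 fold change of PORCN ranged from 4.22 to 4.57 over 11 alternative fits. PORCN did not pass in 2 of these, limma voom and the fit without No40. For fibroblasts it ranged from -0.13 to 0.52, turning sign with the setting. At the fibroblast level the iPS library would have held 63.1 counts of PORCN.

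PORCN (ENSCJAG00000002259) spans 47116194 to 47129261 on the plus strand of the X chromosome, with 2099 exonic bases in 16 blocks, and no other gene of the table overlaps it. FTSJ1, EBP and TBC1D25, its neighbours, did not pass in the iPS comparison. EBP, a sterol isomerase gene that starts 957 bases downstream on the same strand, stood at 29.2 CPM in iPS cells and at 25.1, 38.4 and 46.1 CPM in No40, DSY127 and No20 (adjusted p = 0.882). FTSJ1, a tRNA methyltransferase gene upstream, stood at 8.79 against 8.72, 10.4 and 6.91 CPM (adjusted p = 0.996), and TBC1D25 at 11.8 against 11.7, 20.1 and 12.9 CPM (adjusted p = 0.894).

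**Figure D3:**
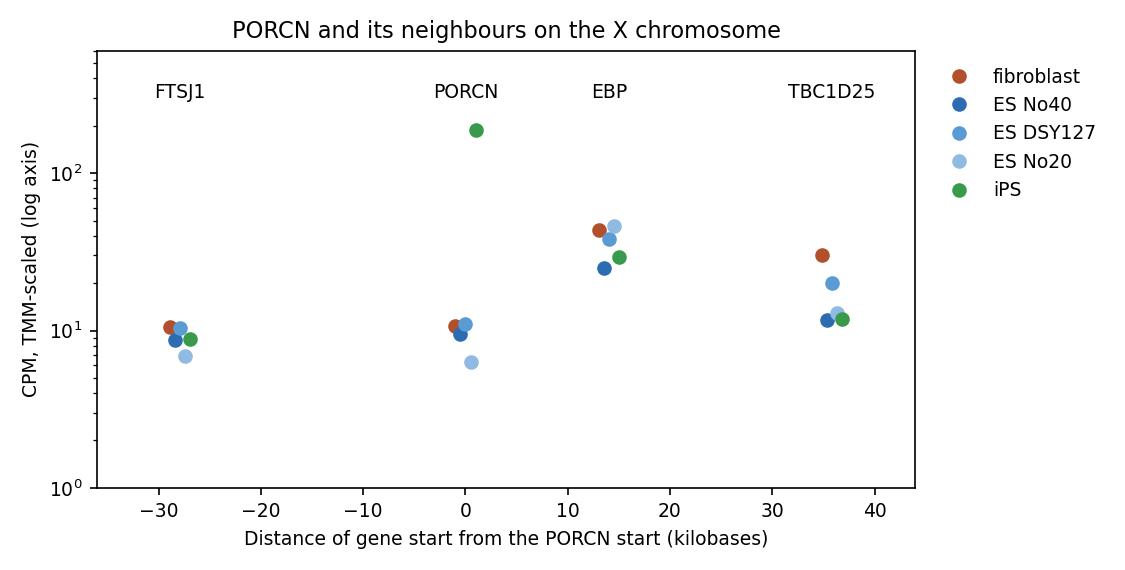
Level of PORCN and of its 3 nearest neighbours that reach 1 CPM, in TMM-scaled CPM on a log axis, against the distance of each gene's start from the PORCN start in kilobases. Each point is a library, and points of a gene are spread slightly sideways for visibility. The iPS point of PORCN, at 187 CPM, stands apart, while the iPS points of FTSJ1, EBP and TBC1D25 lie among or close to those of the ES lines.

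By CPM PORCN ranked 1062 in the iPS library, and by fitted log2 fold change against the ES lines it ranked 91 of 17462 genes tested. A smaller set was high in the iPS library against each of the other libraries. Of 4155 genes at 50 CPM or more in iPS cells, 17 were at least 10 times higher than in each of the other 4 libraries, a threshold chosen after the values were seen. PORCN ranked 6 among these by level, and it was picked with its level known, so its place there is no test. Only 6 of the 17 have a symbol, the others being RPS6KB1, a ribosomal protein S6 kinase (732 CPM), the chemokine CXCL12 (388 CPM), the transcription factor TFAP2A (235 CPM), BRINP3 (198 CPM) and DGAT2, a triglyceride synthesis enzyme (63.2 CPM). By profile distance over the 5 libraries ADAM32, MALRD1 and RPS6KB1 came closest (0.491, 0.767 and 0.777). ADAM32 and MALRD1 stood at only 1.18 and 1.014 CPM in the iPS library, so their likeness rests on few reads.

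In the edgeR fit the genes listed with PORCN for WNT processing and release were called in fibroblasts or not at all. WLS, the carrier that takes acylated ligand to the surface, rose in fibroblasts, at 232 against 52.8 ± 20.9 CPM (2.13 ± 0.45 on the log2 scale, adjusted p = 0.0216), and stood at 80.1 CPM in the iPS library (adjusted p = 0.770). WLS did not pass without No40. SCUBE3, a secreted glycoprotein of the signal peptide-CUB-EGF family, rose in fibroblasts (189 against 19.8 ± 1.95 CPM, 3.25 ± 0.33). It is counted here as a member of the list, and its part in WNT release was not tested. DESeq2 also called SCUBE3 lower in iPS cells. GPC3, a cell surface proteoglycan, fell (17.9 against 81.1 ± 30.3 CPM, -2.18 ± 0.56) but not when No40 or DSY127 was left out, nor with limma voom. Of the 6 genes of this list tested besides PORCN, 2 thus rose, 1 fell and 3 did not pass in fibroblasts (median log2 fold change 0.06). None passed in iPS cells in the edgeR fit (median -0.10, against -0.11 over all genes).

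LGR5 is the receptor of the set, known as a marker of intestinal and hair follicle stem cells. Its counts were 7496 in the fibroblast library, 262, 119 and 311 in No40, DSY127 and No20, and 1 in the iPS library. These are 157 CPM in fibroblasts, 5.32, 3.31 and 7.11 CPM in the 3 ES lines, with iPS cells at 0.169 CPM. Fibroblasts were highest, the ES lines formed a middle group and the iPS library was lowest, with no overlap between the 3. The fitted log2 fold change of fibroblasts against ES lines was 4.90 ± 0.47 (SE).

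In the iPS library LGR5 lay below each of the ES lines by more than counting error, but it did not pass in the main edgeR fit. The fitted log2 fold change of LGR5 in iPS cells was -4.93 ± 0.99 (SE), from 1 count there. By this value LGR5 ranked 1028 from the lowest of 17462 genes tested. Its 95% Poisson interval in iPS cells was 0.00428 to 0.942 CPM, and the lowest ES interval, that of DSY127, began at 2.74 CPM. At the pooled ES level the iPS library would have held 31.8 counts in place of 1. The ratio of iPS to pooled ES level was 0.0315 (95% counting interval 0.000796 to 0.176).

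LGR5 (ENSCJAG00000001428) spans 61035643 to 61180752 on the plus strand of chromosome 9, with 2884 exonic bases in 19 blocks. The nearest downstream gene, ZFC3H1, stood at 58.0 CPM in fibroblasts, with ES lines at 71.3 to 118 CPM (adjusted p = 0.364). TSPAN8, a tetraspanin gene 339703 bases upstream, rose in fibroblasts, to 2.67 CPM from at most 0.122 CPM in any ES line (5.43 on the log2 scale, adjusted p = 0.0272). IRAG1, HOXC9 and TIRAP had the profiles closest to that of LGR5 (distances of 1.09, 1.12 and 1.16). IRAG1, HOXC9 and TIRAP had no count in the iPS library.

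The related receptors did not pass in either comparison. LGR4, its broadly expressed relative, stood at 176 CPM in fibroblasts, 119.9, 65.5 and 102 CPM in No40, DSY127 and No20 and 46.8 CPM in iPS cells (adjusted p = 0.185 and 0.604). Per length, LGR5 was above LGR4 in fibroblasts (54.6 against 33.3 CPM per kilobase) and far below it in the ES lines (1.15 to 2.47 against 12.4 to 22.8) and in the iPS cells (0.0586 against 8.89). LGR6 stood at 1.56 CPM or less in every library and did not pass. The R-spondins, their ligands, were low throughout. RSPO4 stood at 0.0420 CPM in fibroblasts (2 counts) and 3.15 ± 1.007 CPM in the ES lines and fell, the ES level being 76.5 times higher (95% counting interval 21.03 to 633; adjusted p = 0.0165), although not without No40. RSPO2 stood at 6.93 CPM in iPS cells, with No40, DSY127 and No20 at 0.203, 0 and 0.640 CPM (adjusted p = 0.404), and passed as higher in iPS cells only without No20. RSPO1 stood at 0.338 CPM or less in every library. RSPO3, RNF43 and ZNRF3 had no matching identifier and are not analysed here.

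CCN4 is the target gene of the set. Its counts were 3473 in the fibroblast library, 58, 4 and 24 in No40, DSY127 and No20, and 0 in the iPS library. These are 72.9 CPM in fibroblasts, 1.18, 0.111 and 0.549 CPM in the ES lines and no detected expression in the iPS cells. Fibroblasts stood apart, and the ES lines spread over a 10.6-fold range in which the Poisson intervals of DSY127 (0.0303 to 0.285 CPM), No20 (0.352 to 0.817 CPM) and No40 (0.895 to 1.52 CPM) did not overlap. The fitted log2 fold change of fibroblasts against ES lines was 6.86 ± 0.94 (SE).

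A count of 0 in the iPS library allows up to 0.624 CPM (95% exact Poisson limit), which is above the values of DSY127 and No20 and below that of No40. At the pooled ES level the iPS library would have held 3.95 counts of CCN4, and the 95% counting interval of the ratio of iPS to pooled ES level reached from 0 to 0.955. Against a floor of 3 counts CCN4 was at least 1.32-fold lower in iPS cells than in the pooled ES lines. This bound takes each count as an independent read, and it rested on No40. Without No40 the floor lay above the ES level and a difference was not detectable at this depth. Against fibroblasts CCN4 was at least 144-fold lower. CCN4 (ENSCJAG00000004700) spans 61472432 to 61486680 on the minus strand of chromosome 16, with 1839 exonic bases in 11 blocks. Of its neighbours, TG, the thyroglobulin gene 60787 bases away, rose in fibroblasts from 0.366, 0.501 and 0.686 CPM to 4.22 CPM (3.02 on the log2 scale, adjusted p = 0.0369), and NDRG1 did not pass (adjusted p = 0.592). The nearest profiles were those of ADAMTSL3, STAC and ZNF385D (distances of 0.939, 1.63 and 1.84).

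Other CCN genes rose with CCN4 in fibroblasts in 2 of 3 cases tested. CCN1, an immediate early matricellular gene also known as a YAP target, stood at 1349 against 220 ± 71.3 CPM (2.62 ± 0.39, adjusted p = 0.0073) and at 376 CPM in the iPS library. CCN3 stood at 11.3 against 0.309 ± 0.287 CPM (5.21 ± 1.10, adjusted p = 0.0220). CCN6 did not pass (0.945 against 1.49 ± 0.224 CPM), and CCN5, with 8 counts in fibroblasts and 1 in all other libraries, was not tested.

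Other WNT target genes were called in both directions. Of 13 tested besides these, 2 rose in fibroblasts, 3 fell and 8 did not pass, with a median log2 fold change of -1.33. CD44, a hyaluronan receptor, rose (465 against 39.0 ± 20.4 CPM, 3.58 ± 0.51), as did SNAI2, a mesenchymal transcription factor (177 against 4.74 ± 2.27 CPM, 5.22 ± 0.54). SP5, CDX1 and TBXT, targets of the early embryo, fell, but none of these 3 with limma voom. SP5 had no count in fibroblasts and was at least 35.5-fold lower (27.4-fold without No20 and 52.2-fold without No40). The ES level of the caudal homeobox gene CDX1 was 669 times that of fibroblasts (95% counting interval 120 to 26420), from 1 count there.

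TBXT, the mesoderm factor Brachyury, differed 938-fold (260 to 7749) from 2 counts in fibroblasts, and did not pass without No40. TBXT itself ranged from 9.31 to 115 CPM across the ES lines, and DSY127 was the highest. The canonical targets NKD1 (2.84 against 5.14 ± 3.59 CPM, adjusted p = 0.553) and LEF1 (1.34 against 7.78 ± 5.30 CPM, adjusted p = 0.168) did not pass, although LEF1 did as lower with DESeq2. AXIN2 and DKK1 had no matching identifier and are not analysed here. In the iPS library none of the 13 passed.

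In all, 91 pathway genes besides the 4 were measured and 87 tested. In the fibroblast library 15 rose and 13 fell, or 17.2% and 14.9% of them, against 8.8% and 9.28% of all genes tested and 10.4% and 9.77% of the tested identifiers that have a symbol. Their median log2 fold change was 0.08, against -0.15 over all genes. It turned to -0.17 with upper-quartile factors and to -0.30 with total counts alone, where the median over all genes was -0.41 and -0.54. In the iPS library none of the 87 passed in the edgeR quasi-likelihood test (3 higher and 7 lower at an unadjusted p under 0.05). DESeq2 called 1 higher, CSNK1A1, and 2 lower, CD44 and SCUBE3, and limma voom called none. CSNK1A1, the casein kinase that primes β-catenin for destruction, stood at 1098 CPM in the iPS library against 355 ± 18.2 CPM in ES cells.

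**Figure D4:**
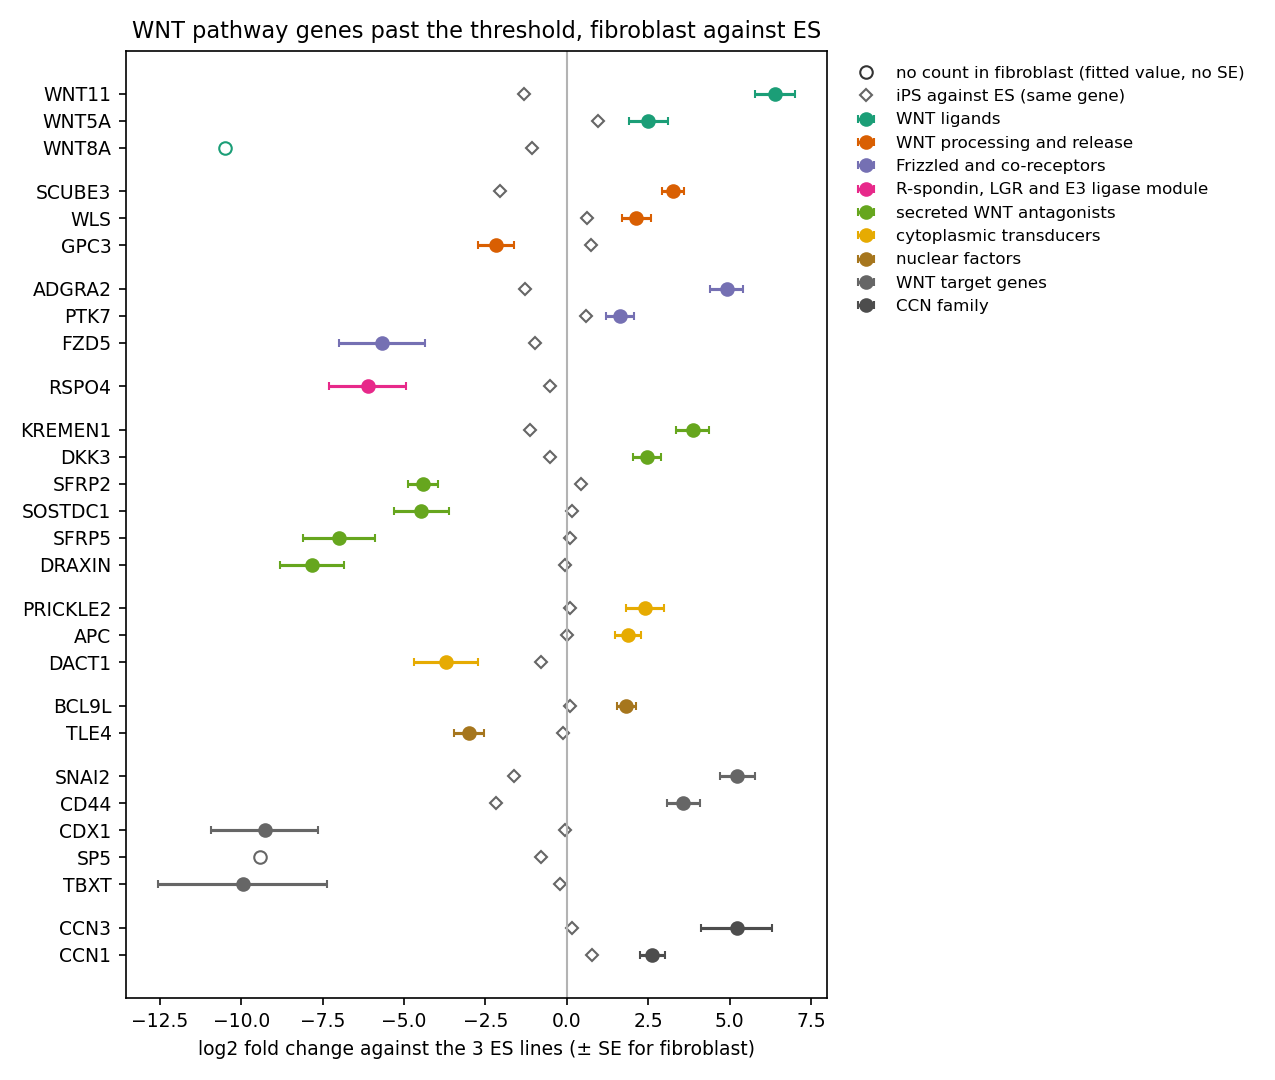
Log2 fold change of the 28 WNT pathway genes that passed in the fibroblast library, against the 3 ES lines, with SE bars and colours for the gene list. Open circles mark WNT8A and SP5, which had no count in fibroblasts and whose fitted position depends on the prior count. Diamonds give the same genes in the iPS library, where none passed; they lie between -2.18 and 0.94.

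Among the WNT pathway lists, that of antagonists had the most falls in fibroblasts, 4 of 10 tested, while 2 rose and 4 did not pass (median log2 fold change -3.73). SFRP2, a decoy receptor that binds WNT ligands, fell from 506 ± 98.2 to 23.6 CPM (-4.42 ± 0.47, adjusted p = 0.00289). SFRP5 (-6.98 ± 1.11) and SOSTDC1, an inhibitor of both BMP and WNT (-4.47 ± 0.84), fell as well. DRAXIN, an axon guidance protein that binds LRP6, was at 2 counts in fibroblasts, and its ES level was 242 times higher (66.8 to 2000). KREMEN1, a DKK receptor (91.3 against 6.30 ± 2.33 CPM, 3.86 ± 0.50), and DKK3 (315 against 57.3 ± 20.4 CPM, 2.46 ± 0.42) rose.

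Of 13 Frizzled receptors and co-receptors 2 rose, 1 fell and 10 did not pass (median 0.46). Most genes of the whole table did not pass either, with 8.8% higher and 9.28% lower, so nothing particular to this list is read from its counts. ADGRA2, a co-activator of WNT7 signalling, rose (676 against 22.6 ± 10.5 CPM, 4.90 ± 0.52), as did PTK7, a planar polarity receptor (244 against 79.0 ± 31.2 CPM, 1.62 ± 0.44). FZD5 fell (3.21 against 164 ± 160 CPM, -5.67 ± 1.33), its level being 349.5 CPM in No40 and 70.9 and 72.4 CPM in DSY127 and No20, and did not pass with limma voom. PTK7 did not pass without No40, without DSY127, or with upper-quartile factors or total counts alone.

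Inside the cell, APC, the scaffold of the β-catenin destruction complex (1.88 ± 0.39), and the planar polarity gene PRICKLE2 (2.39 ± 0.58) rose among 19 transducers. DACT1, a Dishevelled-binding protein (-3.70 ± 0.98), fell, and 16 did not pass (median 0.44). PRICKLE2 did not pass with upper-quartile factors or total counts alone, nor DACT1 without No40 or with limma voom. CTNNB1 itself stood at 775 CPM in fibroblasts, 572 ± 135 CPM in ES lines and 653 CPM in iPS cells (adjusted p = 0.441 and 0.912). Among 11 nuclear factors the co-activator BCL9L rose (1.83 ± 0.30), the Groucho-type co-repressor TLE4 fell (-2.998 ± 0.47) and 9 did not pass (median -0.42).

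The iPS library held WNT2, LGR5 and CCN4 at a smaller share of the fibroblast level than most genes high in fibroblasts and low in ES lines. WNT2 stood at 0.0914% of the fibroblast level (95% counting interval 0.0111% to 0.330%) and LGR5 at 0.107% (0.00272% to 0.598%). CCN4 had no count, which allows up to 0.855%. For comparison, 183 genes stood at 50 CPM or more in fibroblasts and at 16 times the ES mean or more, limits set after the values were seen. Their median share was 2.26% and the middle of the distribution, from the lower to the upper quartile, ran from 0.897% to 4.53%. WNT2, LGR5 and CCN4 are among the 183 and were picked with their levels known, so neither their small share nor their rank is a test. For WNT2 the fibroblast level was 1222.5 times the pooled ES level, and the iPS level was 1.12 times the pooled ES level. That last ratio rests on 2 counts in the iPS library (95% counting interval 0.131 to 4.32). Why the share of WNT2 was small was not tested. Of the 183, 9 lay below WNT2 and 11 below LGR5. Both numbers include 7 genes with no count in the iPS library, CCN4 among them. A count of 3 in the iPS library equals 0.137% of the fibroblast level for WNT2, 0.322% for LGR5 and 0.695% for CCN4.

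The fibroblast markers were spread widely on the same scale, from 1.04% for the proteoglycan gene DCN to 224% for the mesenchymal homeobox gene PRRX1, with a median of 15.8% over 14. COL1A2, a chain of type I collagen, stood at 17.5% (17.3% to 17.8%). In the iPS comparison COL1A2 (3447 CPM, adjusted p = 0.0205) and PRRX1 (389 CPM, adjusted p = 0.0349) rose above the ES lines, and DCN (6.59 against 11.2 ± 1.93 CPM, adjusted p = 0.668) did not pass. In bulk RNA, fewer cells of a type and less RNA per cell cannot be told apart.

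**Figure D5:**
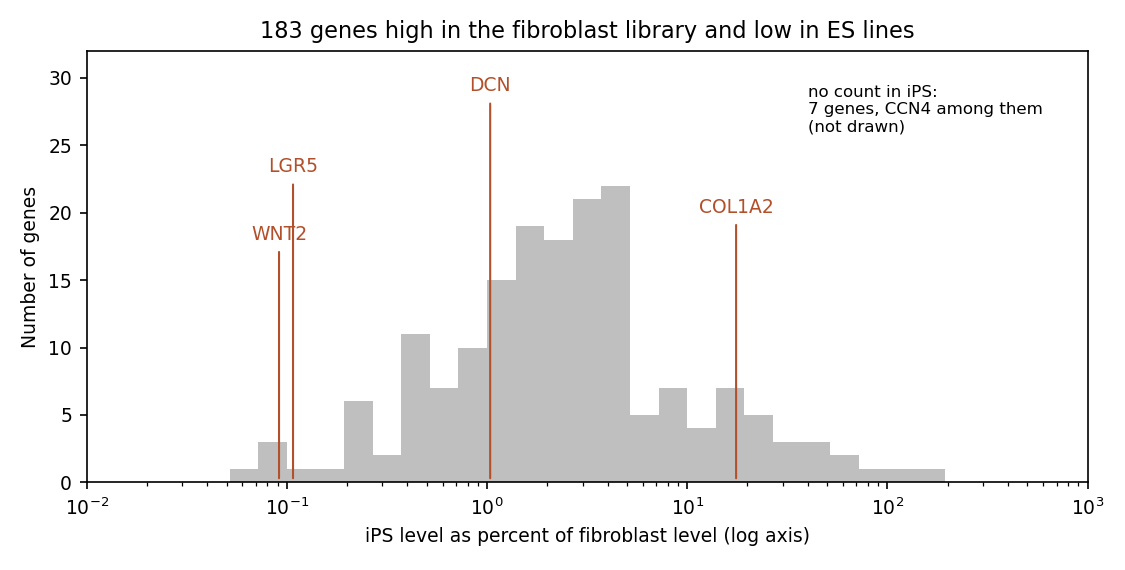
Histogram of 183 genes high in the fibroblast library and low in the ES lines, by the iPS level as percent of the fibroblast level (log axis), 1 library each. Lines mark WNT2 (0.0914%), LGR5 (0.107%), DCN (1.04%) and COL1A2 (17.5%); 7 genes without a count in the iPS library, CCN4 among them, are not drawn.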

How the data were processed

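The deposited values are raw counts per gene, in a series table and again per library with the same numbers. Per the submitters' processing notes the tools were featureCounts 1.5.2, STAR 2.5.3a and Trim Galore 0.4.0, with no role or order. The build, the strand setting and the handling of multi-mapping or overlapping reads were not given in the sources used here, so paralogs and overlapping genes may share reads. Symbols matched 12660 of 30811 identifiers (41.1%). No sequence table was used.

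The fit used edgeR 4.0.16 under R 4.3.3: filterByExpr on the 3 groups (17462 genes kept), TMM factors, and 1 quasi-likelihood fit of all 5 libraries (estimateDisp, glmQLFit, glmQLFTest) with 2 residual degrees of freedom and a common biological coefficient of variation of 0.458. P-values were Benjamini-Hochberg adjusted over all genes and called under 0.05. SE is the fold change divided by the root of F. Log2 CPM for profiles used a prior count of 2. Intervals are 95% exact (Poisson, or conditional binomial for ratios) and, like the floor of 3 counts, cover counting error only, since the sources used here name no molecular identifiers. They take each count as independent. Many low counts were even, although not all, such as CCN3 at 2, 22, 12 and 2 in No40, DSY127, No20 and iPS cells. If both mates of a read pair were counted, the intervals would be too narrow and the floor too low, which was not tested. Level per length divides by the files' gene length. Alternatives included DESeq2 1.42.0 and limma 3.58.1, and the fit was tested on simulated data.

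The 4 genes and the gene lists were chosen with earlier results of these data known. Genes named are the 4, all other WNT genes, called genes of the pathway lists, a set of pathway genes named whatever their result (SFRP1 has no match), the 3 closest profiles of each gene, and 5 fibroblast and pluripotency genes, of which POU5F1 and NANOG are left to the marker sum. Neighbouring genes, genes high in the iPS library and further list members (CSNK1A1, RSPO1, RSPO2, LGR4, LGR6, CCN5 and CCN6) were named after their values were seen.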

Additional observations from a re-analysis of the deposited data

How the results depend on the processing

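WNT2, LGR5 and CCN4 kept a higher level in fibroblasts than in ES lines in every alternative that could fit them (10 for WNT2, which the strict low-count filter removed, and 11 for the others), with log2 fold changes of 9.83 to 10.69, 4.52 to 5.30 and 6.48 to 7.80. For LGR5 in iPS cells limma voom gave -4.32 in place of -4.93. LGR5 did not pass in iPS cells in the main fit, and passed as lower only without a low-count filter and without No20. For CCN4 in iPS cells the fitted -7.51 became -4.31 with DESeq2 and -2.46 with limma voom, fitted values that are no bound for a gene without counts. The cause of these moves was not tested. Among pathway genes lower in fibroblasts the count of 13 became 21 with DESeq2 and 6 with limma voom. Leaving out an ES line gave 13 to 18 higher and 9 to 19 lower. In iPS cells 1 pathway gene was higher without a low-count filter (CSNK1A1) and 1 with DESeq2, 2 were lower with DESeq2, and leaving out an ES line gave 0 to 1 higher. Leaving out the iPS library, an alternative chosen after seeing the data, left 15 higher and 13 lower in fibroblasts, and leaving out the fibroblast library left 0 in iPS cells. Over all genes 1537 were higher and 1620 lower in fibroblasts, against 1201 and 1859 with upper-quartile factors, 1066 and 2016 with total counts alone, 2044 and 2703 with DESeq2, 1674 and 1009 with limma voom, and 924 and 818 without No40. In iPS cells 19 were higher and 0 lower, against 348 and 68 with DESeq2, 198 and 6 without a low-count filter, 5 and 0 with limma voom, and 0 to 256 higher with an ES line left out. No paired analysis was possible because the groups share no replicate numbers that pair libraries, and 2 of the 3 groups hold 1 library.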
